A study of Mus musculus with 49 samples.

Results

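The data described here are the RNA levels of 8 genes out of the 20489 measured in mouse embryonic stem cells: Adamts2, Pnliprp2, Bfsp2, Rsph6a, Tmem184a, Tmem45b, Rgcc and Arhgef33. They are genes whose RNA was higher after Trim24 was degraded in cells in which p53 had not been activated, and they were picked by that measured difference. All 8 were also higher at 4 h of activation, and both contrasts are given as description and without a test. In the uninduced contrast, 12 genes passed both limits used throughout, which were a limma adjusted p below 0.01 and a log2 fold change of 0.75 or more in size. Pou4f3, Fgfbp1 and Tlr2 were among the others, and these were not past both limits at 4 h of the time course. Pou4f3 was at 4 h of the RING experiment (log2 fold change 0.80). All 8 genes passed the filter on low values in every comparison, and none was left out.

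All libraries come from TC-1, an embryonic stem cell line of the 129S6/SvEvTac strain, or from lines edited from it. In the degron line, the endogenous Trim24 protein carries an FKBP12(F36V) and V5 tag at its C terminus, and dTAG13 at 500 nM leads to its degradation. Doxorubicin at 1 µM, a drug that damages DNA, was used to activate p53. The uninduced experiment compared 3 libraries of the degron line after 4 h of dTAG13 with 3 libraries of the same line with neither drug. The time course compared, at 2, 4, 8 and 12 h, 3 libraries given dTAG13 and doxorubicin together with 3 libraries given doxorubicin alone, and held 3 libraries at 0 h that had neither drug. The RING experiment at 4 h of doxorubicin held 4 libraries of a ligase-null line, in which cysteines of the RING domain of endogenous Trim24 were changed to alanine to remove its ubiquitin ligase activity, 4 libraries of the degron line given dTAG13 as well, and 4 libraries of the degron line with Trim24 expressed. Wild-type TC-1 cells gave 2 libraries after 4 h of doxorubicin and 2 untreated libraries. The ligase-null line and the degron line with Trim24 expressed both received no dTAG13. They are separate lines, so the mutation and the line cannot be told apart. dTAG13 was given to the degron line only, so the loss of Trim24 and other effects of dTAG13 cannot be told apart. No group had lost Trim24 at 0 h of the time course.

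p53 is a transcription factor that is held at a low level by Mdm2-driven turnover and builds up after DNA damage, when it raises genes of cell cycle arrest, apoptosis and repair. It binds DNA as a tetramer, at sites built from a pair of 10-base units. Trim24 belongs to the TIF1 family: its RING domain carries ubiquitin ligase activity, and its PHD finger and bromodomain read histone tails, with a preference for histone H3 that is unmethylated at lysine 4. Most of the 8 genes are known from tissues other than stem cells. Adamts2 is a secreted protease that cuts the amino propeptide from fibrillar procollagens, and Pnliprp2 is a lipase of pancreatic acinar cells. Bfsp2 is a subunit of the beaded filament of lens fibre cells, and Rsph6a is a radial spoke head protein of the sperm flagellum. Tmem184a has been described as a heparin receptor of vascular cells, and Tmem45b is a membrane protein with several transmembrane segments. Rgcc is a cell cycle regulator that binds the kinase CDK1 in human cells.

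Library totals over genes lay between 14422098 and 35185256 reads (median 19520026). Levels are given in CPM, reads scaled to library size, with no correction for gene length, so they are compared between libraries and not between genes. A tag that removes protein leaves the mRNA in place, and Trim24 mRNA therefore did not check the degradation. The p53 target Mdm2 checked the activation: it lay at 171 to 178 CPM in the uninduced degraded libraries and 178 to 189 CPM in the uninduced libraries with Trim24, which carry a treatment label of activated p53 but are titled untreated, and at 929.6 to 989 CPM after 4 h of doxorubicin against 177 to 186 CPM at 0 h. All 14 pluripotency markers were detected in every group, and their levels with and without Trim24 are given beside the results. The uninduced experiment stood apart from the time course in endoderm markers. Gata6 was at 99.5 to 118 CPM in its degraded and 102 to 111 CPM in its untreated libraries, against 7.42 to 8.00 CPM at 0 h of the time course. Levels were compared within an experiment only.

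In the GENCODE annotation of GRCm38, all 8 genes are protein coding. Adamts2 lies at chromosome 11, 50602084 to 50807573, plus strand. Pnliprp2 lies at chromosome 19, 58759719 to 58777534, plus strand. Bfsp2 lies at chromosome 9, 103424924 to 103480420, minus strand and shares exon bases with an antisense transcript that is not in the tables. Rsph6a lies at chromosome 7, 19054690 to 19074447, plus strand. Tmem184a lies at chromosome 5, 139802485 to 139819917, minus strand and shares exon bases with Mafk on the other strand and with a predicted gene on its own strand. Tmem45b lies at chromosome 9, 31426196 to 31464462, minus strand and shares exon bases with a long non-coding RNA. Rgcc lies at chromosome 14, 79288756 to 79301645, minus strand. Arhgef33 lies at chromosome 17, 80307407 to 80400081, plus strand and shares exon bases with a predicted gene. Reads were counted without regard to strand, at settings that the paper gives as otherwise default. The part of reads from such overlaps in these levels was not tested.

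RefSeq promoters on GRCm38.p6 were at hand for 7 of the 8 genes, 8 promoters in all, each from 250 bases before to 50 bases after a start site, and were read on both strands for the p53 decamer, the 10-base unit of a p53 site. An exact decamer was present in 1 of the 8, at a Tmem184a start, against 2745 of 32851 promoters of the same length (8.36%). A decamer with at most 1 mismatch was present in 4 of the 8, against 16721 of all promoters (50.9%), and a pair of decamers in none of the 8, against 1342 (4.09%). A match describes letters and not a bound site, and no match says only that these letters are not in this window. The 250 bases before the start are printed for the genes with a match, Tmem184a (at the start with the exact one), Bfsp2 and Adamts2, 5′ to 3′ on the strand of the gene, with the matches in capitals. In Tmem184a (chr5:139814284-139814533, minus strand) the exact match begins 11 bases before the start, and a further match with 1 mismatch begins 176 bases before it. In Bfsp2 (chr9:103449177-103449426, minus strand) the match begins 27 bases and in Adamts2 (chr11:50601835-50602084, plus strand) 120 bases before the start, each with 1 mismatch. The starts shown for Tmem184a and Bfsp2 lie inside the gene spans given above.
Tmem184a: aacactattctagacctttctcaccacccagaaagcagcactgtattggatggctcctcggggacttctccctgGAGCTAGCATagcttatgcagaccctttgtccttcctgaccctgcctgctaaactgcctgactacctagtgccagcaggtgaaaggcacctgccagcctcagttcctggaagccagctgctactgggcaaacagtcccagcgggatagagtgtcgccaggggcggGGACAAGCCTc
Bfsp2: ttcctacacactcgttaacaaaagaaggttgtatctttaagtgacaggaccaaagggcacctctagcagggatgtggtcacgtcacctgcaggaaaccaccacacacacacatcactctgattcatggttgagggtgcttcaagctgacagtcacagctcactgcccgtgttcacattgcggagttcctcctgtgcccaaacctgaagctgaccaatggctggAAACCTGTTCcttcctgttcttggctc
Adamts2: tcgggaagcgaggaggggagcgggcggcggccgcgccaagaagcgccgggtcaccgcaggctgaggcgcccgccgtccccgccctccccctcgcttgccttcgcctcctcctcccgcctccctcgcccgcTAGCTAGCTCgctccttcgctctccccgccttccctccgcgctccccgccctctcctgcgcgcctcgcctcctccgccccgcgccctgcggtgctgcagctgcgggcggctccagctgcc

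The first question was how far each gene stood above its level with Trim24 present when p53 had not been activated. For each of the 8 genes the 3 degraded libraries lay above the 3 untreated ones with no overlap, and the ratio of mean levels ran from 2.10 in Tmem184a to 7.19 in Rgcc. This is the contrast that chose the genes. Past both limits and higher were 12 of 15360 genes tested (0.0781%), the 8 among them, and no gene was past both limits and lower. Adamts2 had 3.39, 3.23 and 3.44 CPM in the degraded libraries, against 0.859, 0.542 and 0.385 CPM in the untreated libraries. The log2 fold change was 1.99 (SE 0.18), and the untreated libraries spread more widely than the degraded ones. Pnliprp2 had 1.44, 2.04 and 1.96 CPM in the degraded libraries, against 0.407, 0.696 and 0.615 CPM in the untreated libraries, a log2 fold change of 1.22 (SE 0.19). Every degraded library was above every untreated one in both secreted enzymes.

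Bfsp2 had 1.55, 1.24 and 1.40 CPM in the degraded libraries, against 0.226, 0.309 and 0.192 CPM in the untreated libraries, a log2 fold change of 1.55 (SE 0.20). Rsph6a had 1.15, 1.32 and 0.961 CPM in the degraded libraries, against 0.271, 0.309 and 0.231 CPM in the untreated libraries, a log2 fold change of 1.25 (SE 0.20). In these structural genes every untreated library lay at or under 0.309 CPM, and the lowest degraded library was at 0.961 CPM. Tmem184a had 4.44, 4.83 and 4.57 CPM in the degraded libraries, against 2.08, 2.67 and 1.85 CPM in the untreated libraries. Its log2 fold change of 0.97 (SE 0.15) was the smallest. Tmem45b had 2.201, 2.196 and 1.84 CPM in the degraded libraries, against 0.769, 0.619 and 0.884 CPM in the untreated libraries, a log2 fold change of 1.13 (SE 0.18). Rgcc rested on the fewest reads: 28, 18 and 17 reads in the degraded libraries, or 1.01, 0.719 and 0.681 CPM, against 4, 2 and 2 reads in the untreated ones, or 0.181, 0.0774 and 0.0769 CPM. The log2 fold change was 1.30 (SE 0.21), and the deposited scale adds a prior count of 8 before the logarithm, which understates the change of genes this low. Arhgef33 had 1.41, 1.44 and 1.20 CPM in the degraded libraries, against 0.271, 0.619 and 0.423 CPM in the untreated libraries, a log2 fold change of 1.12 (SE 0.20).

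The endoderm markers that set this experiment apart overlapped between its arms: Gata4 lay at 105 to 122 CPM in the degraded and 108 to 111 CPM in the untreated libraries, and the 20 markers of other cell types summed to 648 to 711 CPM in the degraded and 667 to 693 CPM in the untreated libraries. The 14 pluripotency markers summed to 5363 to 5570.2 CPM in the degraded and 5387 to 5588 CPM in the untreated libraries, and Nanog alone was at 305 to 326 CPM in the degraded and 333 to 365 CPM in the untreated ones, without overlap. Their part in the uninduced differences was not tested. Of the genes just inside the limits, Fgfbp1 and Tlr2 had log2 fold changes of 0.83 and 0.78. Of those just outside, Reg1 missed on the adjusted p (log2 fold change 0.97, adjusted p = 0.031 with limma) and Csrnp2 on the size (0.67). Without a filter on low values, or in limma without trend and robust, no gene in the tables passed both limits in this contrast, and with limma-voom on the recovered reads Arhgef33 did not. Without replicate 1 of the untreated libraries Pnliprp2 (1.09) and Arhgef33 (0.96) no longer passed on p, nor did Arhgef33 (1.08) without replicate 2 of the degraded ones.

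**Figure D1:**
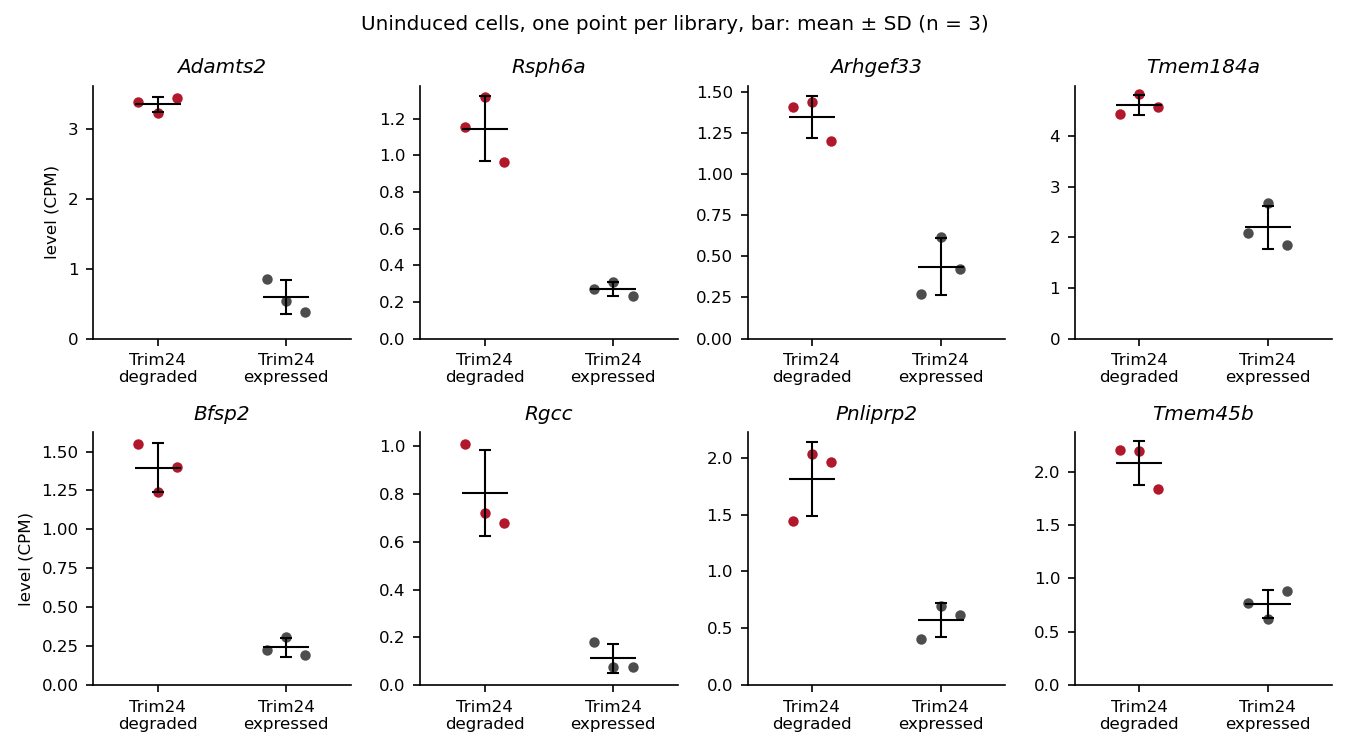
RNA level in CPM (y axis, linear, a scale of its own for each gene) of the 8 genes in uninduced cells, Trim24 degraded on the left and Trim24 expressed on the right, 1 point per library, with the mean and SD over 3 libraries as bars. The degraded and expressed libraries do not overlap in any of the 8 panels, which is the difference by which the genes were chosen.

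The next question was whether the difference was also there once p53 had been activated, and how it changed with time. At 2 h, the first time measured and one the choice of genes did not use, 7 of the 8 genes were past both limits and higher with Trim24 degraded, where 51 of 15688 genes tested (0.325%) were. At 8 h 6 of the 8 were, where 198 of 17424 genes tested (1.14%) were, and at 12 h 5 of the 8, where 453 of 16774 genes tested (2.70%) were. At 4 h, which bore on the choice, all 8 were, where 162 of 16138 genes tested (1.00%) were. The median log2 fold change of the 8 was 2.01 at 2 h, 1.59 at 4 h, 1.08 at 8 h and 0.95 at 12 h, and the median of all genes tested stayed within 0.05 of 0 at each time. The 8 genes did not move alike. From 2 h to 12 h the log2 effect narrowed in Adamts2, Bfsp2, Rsph6a, Tmem184a and Arhgef33 and widened in Pnliprp2 and Rgcc. The times between did not always lie in order. The ratio of means at 2, 4, 8 and 12 h was 4.50, 2.26, 2.15 and 2.34 in Rsph6a. In Tmem184a it was 3.92, 2.67, 2.14 and 2.15. The effect in Tmem45b was past both limits at 4 h but not at 2, 8 or 12 h. Degraded and expressed libraries did not overlap in any of the 8 genes at any of the times, Tmem45b at 2 h included, which did not pass. The share of all genes whose libraries lay apart in this way was not counted, in these or the other comparisons. The summed pluripotency markers lay at 5256 to 5448 CPM degraded and 5691 to 5805 CPM expressed at 2 h, 3606 to 3719.8 CPM degraded and 3956 to 4069.5 CPM expressed at 4 h, 1507 to 1801 CPM degraded and 1720.0 to 1879 CPM expressed at 8 h, and 1299 to 1408 CPM degraded and 1272 to 1362 CPM expressed at 12 h. The arms did not overlap in this sum at 2 h and 4 h and did at 8 h and 12 h. None of the 14 markers was past both limits at any of these times by limma or limma-voom, while at an unadjusted p under 0.05 3 were lower at 2 h, 9 at 4 h, 8 at 8 h and 1 at 12 h, and 3 were higher at 12 h. Over all genes tested, that limit gave 526 of 15688 lower at 2 h, 2134 of 16138 at 4 h and 2678 of 17424 at 8 h. At 12 h it gave 3937 of 16774 lower and 3018 higher. The part of the pluripotency markers in the differences of the 8 genes was not tested.

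Adamts2, the procollagen protease, had 20.7, 17.4 and 18.4 CPM in the degraded libraries, against 2.21, 1.77 and 1.47 CPM in those with Trim24 at 2 h. The log2 fold change at that time was 3.15 (SE 0.14, adjusted p = 4.7e-16) by limma. No library of one arm overlapped the other. By 12 h Adamts2 had 66.2, 71.4 and 61.9 CPM in the degraded libraries, against 34.4, 41.5 and 37.7 CPM in those with Trim24. The log2 fold change there was 0.81 (SE 0.08, adjusted p = 3.6e-08), and the 12 h minus 2 h difference between the effects was −2.35 (SE 0.16, adjusted p = 2.5e-10). On the CPM scale the gap between the means was 17.0 at 2 h, 36.8 at 4 h, 35.1 at 8 h and 28.6 at 12 h, so the ratio fell to 1.76 at 12 h, against 10.4 at 2 h, while the gap was larger at 12 h than at 2 h. Without replicate 1 of the expressed 12 h libraries, the 12 h fold change of Adamts2 was 0.74, below the limit of size.

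Pnliprp2, the acinar lipase, went the other way. At 2 h it had 2.72, 2.61 and 3.21 CPM in the degraded libraries, against 0.166, 0.337 and 0.469 CPM in those with Trim24, a log2 fold change of 2.25 (SE 0.20, adjusted p = 8.0e-09). At 12 h it had 22.7, 24.2 and 23.3 CPM in the degraded libraries, against 1.11, 1.52 and 1.70 CPM in those with Trim24, a log2 fold change of 3.73 (SE 0.13, adjusted p = 2.3e-16), the largest of the 8 at that time. The level with Trim24 expressed stayed at or under 1.92 CPM at each time, and the degraded mean was 11.1 ± 0.545 CPM at 4 h and 21.1 ± 2.51 CPM at 8 h (SD, n = 3 each). The effect was larger at 12 h than at 2 h by 1.48 (SE 0.24, adjusted p = 2.2e-04), and the ratio of means was 8.78 at 2 h and 16.2 at 12 h.

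Rgcc, the cell cycle regulator, was like Pnliprp2. It had 3.82, 3.48 and 4.06 CPM in the degraded libraries, against 0.443, 0.717 and 0.703 CPM in those with Trim24 at 2 h, a log2 fold change of 2.09 (SE 0.19, adjusted p = 5.2e-09). At 12 h it had 22.2, 28.5 and 19.3 CPM in the degraded libraries, against 2.46, 2.63 and 2.60 CPM in those with Trim24, a log2 fold change of 3.003 (SE 0.13, adjusted p = 1.3e-14). With Trim24 expressed Rgcc reached 3.89 ± 0.165 CPM at 8 h and was at 2.56 ± 0.0903 CPM at 12 h, while the degraded means were 21.5 ± 0.463 CPM at 8 h and 23.3 ± 4.72 CPM at 12 h (SD, n = 3 each). The 12 h minus 2 h difference was 0.91 (SE 0.22, adjusted p = 0.0072). It was lost on leaving out any of 10 of the 12 libraries in turn, and with limma-voom, where the difference of Pnliprp2 was lost as well. The ratio of means of Rgcc was 6.10 at 2 h, 5.70 at 4 h, 5.54 at 8 h and 9.11 at 12 h. The prior count of 8 understates changes most at low levels, and both genes were lowest at 2 h. Over settings that kept all libraries, the 12 h minus 2 h difference was as low as 0.58 in Rgcc and 0.88 in Pnliprp2. The part of the prior count in these differences was not tested.

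Bfsp2, the lens filament subunit, was past both limits at 2 h and 8 h but not at 12 h. At 2 h it had 4.05, 3.60 and 3.57 CPM in the degraded libraries, against 0.886, 0.337 and 0.820 CPM in those with Trim24, a log2 fold change of 2.02 (SE 0.20, adjusted p = 7.0e-08). At 12 h it had 3.24, 4.25 and 3.37 CPM in the degraded libraries, against 2.80, 2.68 and 2.65 CPM in those with Trim24, a log2 fold change of 0.37 (SE 0.15, adjusted p = 0.068) that did not pass. Both sides moved: the degraded mean was 5.17 ± 0.548 CPM at 4 h and 3.62 ± 0.549 CPM at 12 h, and the expressed mean was 1.25 ± 0.346 CPM at 4 h and 2.71 ± 0.0772 CPM at 12 h (SD, n = 3 each). The effect at 12 h minus that at 2 h was −1.66 (SE 0.26, adjusted p = 1.6e-04).

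Rsph6a, the radial spoke protein, kept a difference at every time. At 2 h it had 8.76, 9.18 and 9.68 CPM in the degraded libraries, against 2.21, 1.81 and 2.11 CPM in those with Trim24, a log2 fold change of 1.99 (SE 0.14, adjusted p = 2.9e-11). At 12 h it had 55.4, 62.0 and 51.0 CPM in the degraded libraries, against 22.8, 24.8 and 24.4 CPM in those with Trim24, a log2 fold change of 1.21 (SE 0.08, adjusted p = 6.1e-11). The gap between the means widened from time to time on the CPM scale, being 7.16, 12.2, 23.4 and 32.1 CPM at 2, 4, 8 and 12 h, while the 12 h minus 2 h difference on the log2 scale was −0.78 (SE 0.14, adjusted p = 6.1e-04).

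Tmem184a, the heparin receptor gene, followed an arch in both arms. At 2 h it had 20.8, 16.7 and 21.1 CPM in the degraded libraries, against 4.93, 5.40 and 4.63 CPM in those with Trim24, a log2 fold change of 1.89 (SE 0.12, adjusted p = 1.3e-12). The means were highest at 8 h, at 35.5 ± 1.97 CPM degraded and 16.6 ± 1.21 CPM expressed (SD, n = 3 each). At 12 h Tmem184a had 20.96, 22.2 and 21.7 CPM in the degraded libraries, against 11.1, 9.83 and 9.17 CPM in those with Trim24, a log2 fold change of 1.08 (SE 0.10, adjusted p = 9.7e-09), and the 12 h minus 2 h difference was −0.81 (SE 0.15, adjusted p = 8.5e-04). Mafk, which shares exon bases with it on the other strand, was at 30.1 CPM degraded and 31.3 CPM expressed at 4 h, and its part in the level of Tmem184a was not tested.

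Arhgef33 had 5.60, 6.50 and 5.75 CPM in the degraded libraries, against 2.66, 2.66 and 1.93 CPM in those with Trim24 at 2 h. The log2 fold change was 1.19 (SE 0.15, adjusted p = 6.5e-06) by limma. At 12 h it had 73.3, 80.0 and 75.7 CPM in the degraded libraries, against 57.9, 61.3 and 57.6 CPM in those with Trim24, and the log2 fold change of 0.37 (SE 0.07, adjusted p = 1.7e-04) passed on p but not on size. The gap on the CPM scale was 3.54 at 2 h and 17.4 at 12 h, against a 12 h minus 2 h difference of −0.82 (SE 0.15, adjusted p = 4.7e-04) on the log2 scale. Tmem45b, the other membrane protein, had 2.16, 2.15 and 1.83 CPM in the degraded libraries, against 1.66, 1.10 and 1.05 CPM in those with Trim24 at 2 h, a log2 fold change of 0.58 (SE 0.19, adjusted p = 0.23) that did not pass. At 12 h it had 1.98, 1.57 and 1.83 CPM in the degraded libraries, against 0.820, 1.05 and 1.06 CPM in those with Trim24, a log2 fold change of 0.69 (SE 0.18, adjusted p = 0.0056), under the limit of size. Its 12 h minus 2 h difference was 0.11, with a 95% interval of −0.41 to 0.63 (adjusted p = 0.83).

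The log2 fold changes at 8 h were past both limits in 6 genes. They were 1.18 (SE 0.09, adjusted p = 8.9e-04) in Adamts2, 1.08 (SE 0.10, adjusted p = 0.0018) in Rsph6a and 1.08 (SE 0.10, adjusted p = 0.0012) in Tmem184a. They were 2.37 (SE 0.12, adjusted p = 1.3e-05) in Rgcc, 3.54 (SE 0.13, adjusted p = 4.1e-05) in Pnliprp2 and 0.93 (SE 0.16, adjusted p = 0.0033) in Bfsp2. In Tmem45b the value was 0.66 and in Arhgef33 0.45, both under the limit of size. The adjusted p-values of this paragraph are from limma without trend and robust, while the SEs are from the fit with them. The p-values were taken so because with trend and robust limma took the prior degrees of freedom as infinite for 99.3% of genes at 8 h. The 4 h values, which bore on the choice, were 2.84 in Adamts2, 3.39 in Pnliprp2, 2.38 in Rgcc, 1.80 in Bfsp2, 1.39 in Tmem184a, 1.17 in Rsph6a, 1.10 in Tmem45b and 0.91 in Arhgef33.

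The test of 12 h against 2 h was added after the data had been seen. In it 5 of the 8 genes were past both limits and lower, where 160 of 17115 genes tested (0.935%) were, and both Rgcc and Pnliprp2 were past both limits and higher, where 261 of 17115 genes tested (1.52%) were. With quantile normalization 2 of the 8 were past both limits and lower, Adamts2 (−1.93) and Bfsp2 (−1.59), and the values were −0.46 in Rsph6a, −0.45 in Tmem184a and −0.61 in Arhgef33. Calls on size were also lost without single libraries: Rsph6a without replicate 2 of the expressed 2 h libraries (−0.71), replicate 3 of the degraded 2 h libraries (−0.7487) or replicate 3 of the degraded 12 h libraries (−0.72), Tmem184a without replicate 1 of the expressed 12 h libraries (−0.73) and Arhgef33 without replicate 3 of the expressed 2 h libraries (−0.69). Against 4 h, given without a test since those libraries bore on the choice, both limits were passed as lower by 0 of the 8 at 2 h (0.0485% of all genes), by 1 at 8 h (0.0226%) and by 2 at 12 h (1.28%): the effect on Adamts2 was lower by a log2 difference of −1.66 at 8 h and −2.03 at 12 h, and that on Bfsp2 by −1.43 at 12 h. Markers of other cell types moved between the 12 h groups: Sox17 was at 4.54 to 7.25 CPM in the degraded and 1.78 to 2.81 CPM in the expressed libraries. Past both limits, 3 of the 19 markers tested were higher and 1 was lower with Trim24 degraded, where 2.70% of all genes were higher and 1.41% lower. The 20 markers together summed to 191 to 208 CPM in the degraded and 216 to 229.7 CPM in the expressed libraries, and their part in the 12 h differences was not tested. Without a filter on low values, 0 of the 8 genes were past both limits at 2 h, in place of 7.

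**Figure D2:**
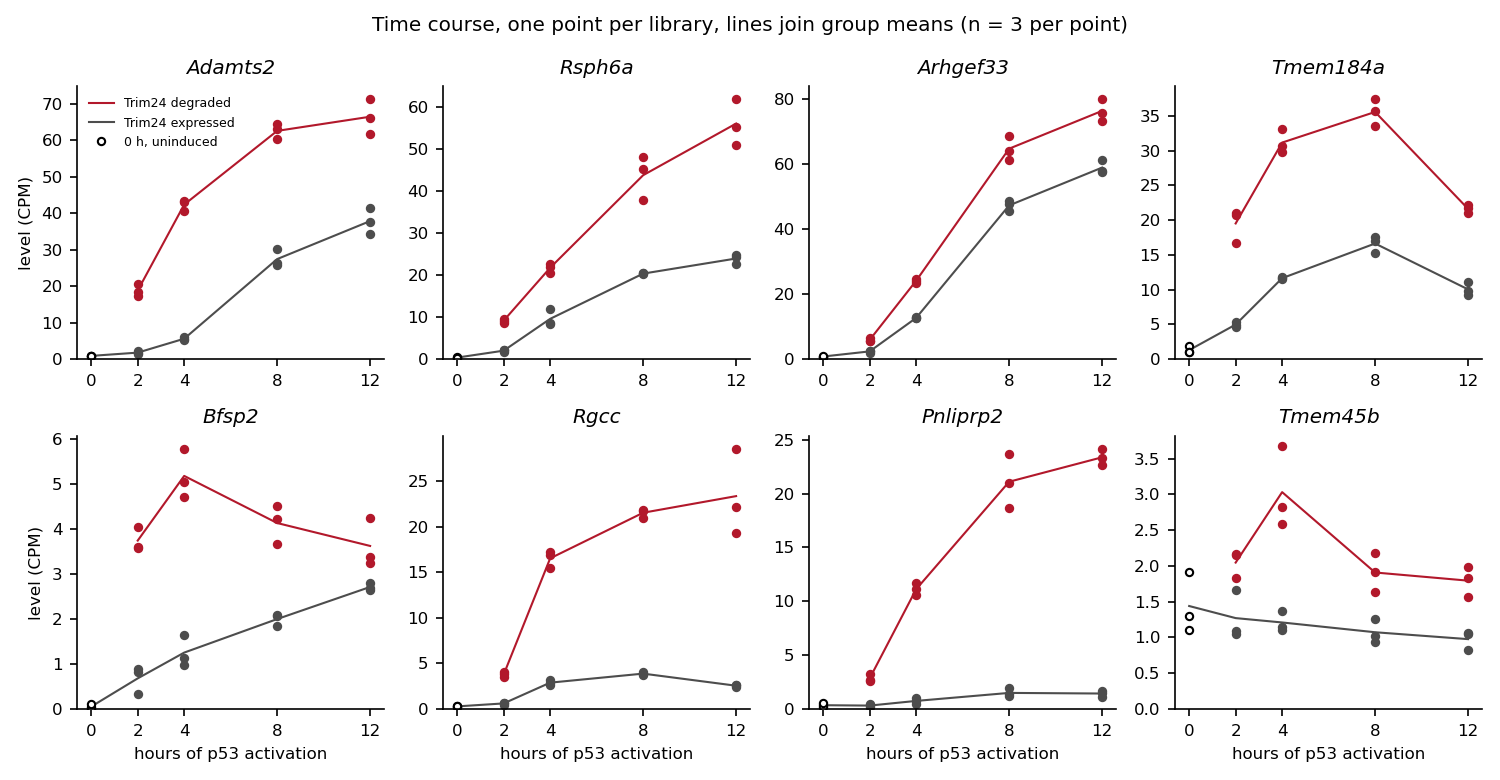
RNA level in CPM (y axis, linear, a scale of its own for each gene) against hours of p53 activation (x axis) for the 8 genes, with Trim24 degraded in red, Trim24 expressed in grey and the uninduced 0 h libraries as open circles, 1 point per library and lines through means of 3. The red and grey points do not overlap at any of the 4 times, the grey level stays low in Pnliprp2, Rgcc and Tmem45b, and it comes near the red one in Arhgef33 and Bfsp2 at 12 h.

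**Figure D3:**
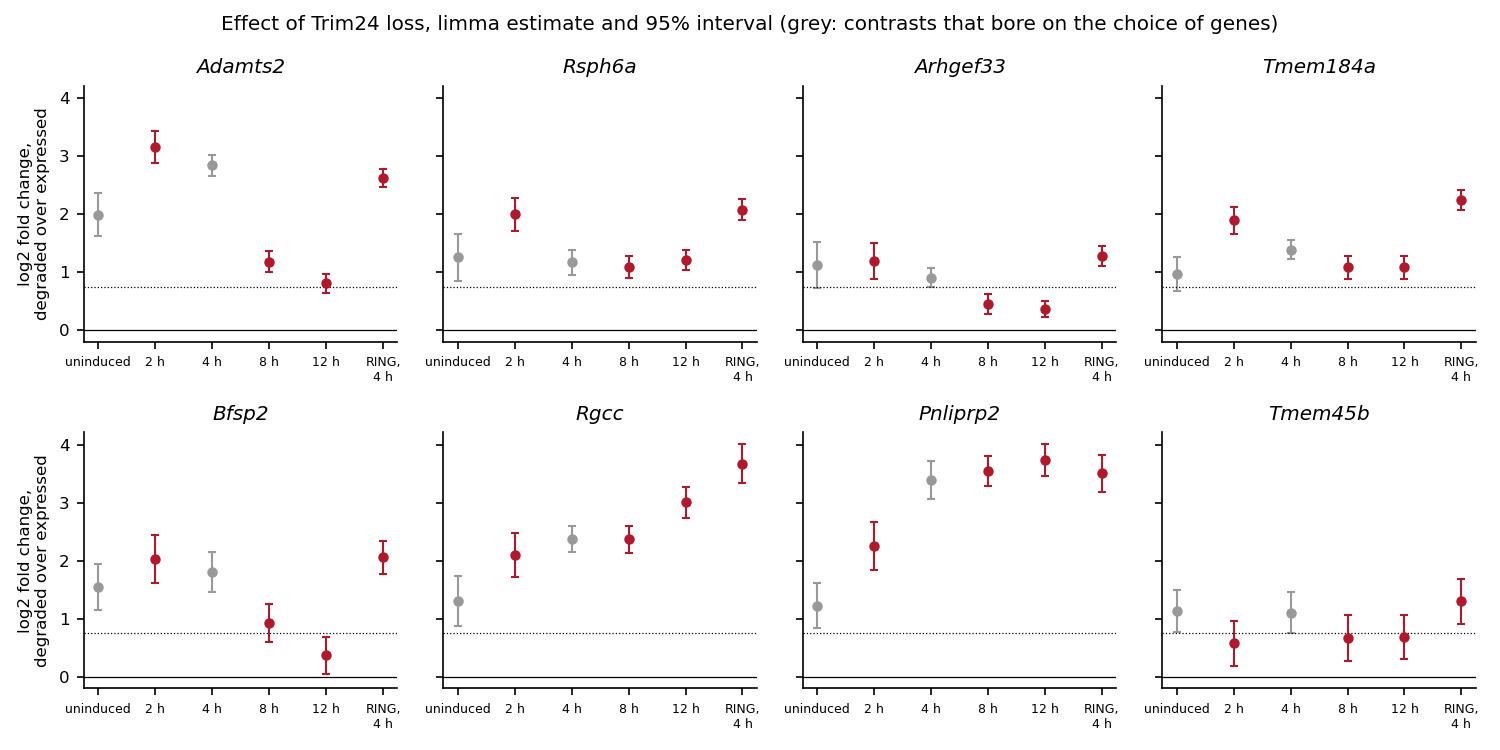
Log2 fold change of Trim24 degraded over expressed (y axis, 1 scale for all genes) by limma for the 8 genes in the uninduced cells, at 2, 4, 8 and 12 h of the time course and at 4 h of the RING experiment, with bars for the 95% interval and grey for the contrasts that bore on the choice of genes. From 2 h to 12 h the estimate falls in Adamts2 and Bfsp2 and climbs in Pnliprp2 and Rgcc, and the dotted line marks the limit of 0.75.

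A further question was whether these genes changed with p53 activation in cells that kept Trim24. No group lacked p53, so an answer to p53 and other effects of doxorubicin cannot be told apart. Relative to the 0 h libraries of the time course, 4 of the 8 were past both limits and higher at 2 h of doxorubicin, where 476 of 15515 genes tested (3.07%) were, 6 at 4 h, where 2039 of 15772 genes tested (12.9%) were, 7 at 8 h, where 4452 of 16497 genes tested (27.0%) were, and 7 at 12 h, where 4964 of 16402 genes tested (30.3%) were. None of the 8 was past both limits and lower. These comparisons share the expressed libraries with those of Trim24 loss. The summed pluripotency markers lay at 6736 to 6844 CPM at 0 h, against 1272 to 1362 CPM at 12 h with Trim24 expressed. The part of this fall in the activation values was not tested. With each library centred on its median, the median fold change of all genes shifted to −0.19 at 8 h and −0.17 at 12 h on the log2 scale, and under quantile normalization Pnliprp2 no longer passed at 8 h and 12 h (0.60 and 0.52). Arhgef33 and Rsph6a climbed most. Arhgef33 had 57.9, 61.3 and 57.6 CPM after 12 h, against 0.798, 0.785 and 0.934 CPM at 0 h, a log2 fold change of 5.63 (SE 0.11, adjusted p = 1.5e-17). Rsph6a had 22.8, 24.8 and 24.4 CPM after 12 h, against 0.498, 0.343 and 0.350 CPM at 0 h, a log2 fold change of 5.02 (SE 0.14, adjusted p = 1.3e-15). All 3 libraries at 12 h were far above all 3 at 0 h in both genes.

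Adamts2 was slow and then large. Its log2 fold change was 0.75 (SE 0.19, adjusted p = 0.0087) at 2 h, which fell short on size, 2.22 (SE 0.15, adjusted p = 2.7e-10) at 4 h and 4.90 (SE 0.12, adjusted p = 2.7e-16) at 12 h, when it had 34.4, 41.5 and 37.7 CPM, against 0.847, 0.932 and 0.993 CPM at 0 h. Tmem184a and Rgcc turned over within the course. Tmem184a had log2 fold changes of 1.71, 2.88, 3.38 and 2.67 at 2, 4, 8 and 12 h, and Rgcc of 0.57, 2.32, 2.70 and 2.16, the first of which did not pass (adjusted p = 0.073 with limma). Bfsp2 was almost without reads at 0 h, with 1, 0 and 2 reads in the 3 libraries, so its activation is given as a ratio of read rates. That ratio was 12.4 (95% exact counting interval 3.93 to 62.8) at 2 h, 24.5 (95% exact counting interval 8.05 to 122) at 4 h, 38.2 (95% exact counting interval 12.8 to 188) at 8 h and 52.0 (95% exact counting interval 17.5 to 255) at 12 h, and these intervals cover counting error only.

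Pnliprp2 and Tmem45b were the exceptions. Pnliprp2 had 1.01, 0.517 and 0.742 CPM at 4 h of doxorubicin, against 0.349, 0.147 and 0.584 CPM at 0 h, groups that overlapped, and the log2 fold change of 0.66 (SE 0.24, adjusted p = 0.026) did not pass. At 12 h, with 1.11, 1.52 and 1.70 CPM, it was 1.36 (SE 0.23, adjusted p = 2.6e-05). Tmem45b had 1.11, 1.15 and 1.37 CPM at 4 h of doxorubicin, against 1.30, 1.91 and 1.11 CPM at 0 h, and at 12 h a log2 fold change of −0.41 (SE 0.19, adjusted p = 0.060) with a 95% interval of −0.82 to 0.00. Its groups overlapped at 2, 4 and 8 h, and no difference was detectable there at this depth. Without replicate 3 of the 0 h libraries Pnliprp2 passed at 4 h (0.88), and without replicate 3 of the 2 h libraries Adamts2 passed at 2 h (0.87). Under quantile normalization Tmem45b passed both limits as lower, at a log2 fold change of −1.13 at 8 h and −1.25 at 12 h.

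The wild-type line, in which Trim24 carries no tag, gave the same 6 genes at 4 h as past both limits and higher, where 1315 of 16448 genes tested (7.99%) were, with 2 libraries a group. Rsph6a had 3.47 and 2.76 CPM after 4 h of doxorubicin, against 0.186 and 0.540 CPM untreated, a log2 fold change of 2.31. Tmem184a had 7.29 and 6.30 CPM after 4 h of doxorubicin, against 1.24 and 1.74 CPM untreated, a log2 fold change of 1.96. Arhgef33 had 4.32 and 3.95 CPM after 4 h of doxorubicin, against 1.08 and 0.989 CPM untreated, a log2 fold change of 1.69. In each the activated libraries lay above the untreated ones. Adamts2 had 2.62 and 2.57 CPM after 4 h of doxorubicin, against 0.527 and 0.629 CPM untreated, Bfsp2 1.07 and 1.03 CPM after 4 h of doxorubicin, against 0.186 and 0.150 CPM untreated, and Rgcc 1.99 and 1.57 CPM after 4 h of doxorubicin, against 0.217 and 0.450 CPM untreated, with log2 fold changes of 1.66, 1.43 and 1.64. Pnliprp2 had 0.536 and 0.690 CPM after 4 h of doxorubicin, against 0.341 and 0.360 CPM untreated, a log2 fold change of 0.45 (SE 0.24, adjusted p = 0.14) that did not pass. Tmem45b had 1.10 and 0.815 CPM after 4 h of doxorubicin, against 1.21 and 1.14 CPM untreated, a log2 fold change of −0.23 (SE 0.21, adjusted p = 0.44) that did not pass either. Without replicate 1 of the activated wild-type libraries, 3 genes passed in place of 6, and Bfsp2, Rgcc and Rsph6a were lost. limma took the prior degrees of freedom as infinite for 96.6% of genes in this fit, and p-values of the genes that passed are not given for that reason.

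The RING experiment gave a second set of libraries at 4 h, which the choice of genes did not use, and held the ligase-null line. The question was how the same genes stood in that line, whose ligase activity was not measured in these data. With Trim24 degraded all 8 genes were past both limits and higher than with Trim24 expressed, where 165 of 16313 genes tested (1.01%) were, and in the ligase-null line all 8 were as well, where 798 of 17100 genes tested (4.67%) were. Set against the degraded libraries, the ligase-null line was past both limits and higher in 1 of the 8, Tmem45b, where 806 of 16674 genes tested (4.83%) were, and past both limits and lower in none of the 8 by limma, where 308 of 16674 genes tested (1.85%) were. At an adjusted p under 0.05 with no limit of size, Tmem45b, Tmem184a and Arhgef33 were higher and Adamts2, Rgcc and Pnliprp2 were lower. The ligase-null and degraded groups share their expressed reference. The median log2 fold change of the 8 was 2.16 for degraded over expressed, 2.28 for ligase-null over expressed and 0.03 for ligase-null over degraded. No group in the RING experiment was without doxorubicin.

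Tmem45b, which did not pass in any activation comparison on the deposited scale, had the one call between the ligase-null line and degradation. It had 5.92, 5.61, 6.10 and 5.85 CPM in the ligase-null line and 3.09, 1.83, 2.52 and 2.40 CPM with Trim24 degraded, against 1.09, 0.681, 0.416 and 1.05 CPM with Trim24 expressed. The log2 fold change was 2.46 (SE 0.18, adjusted p = 2.4e-13) for ligase-null over expressed and 1.30 (SE 0.19, adjusted p = 4.1e-06) for degraded over expressed. Ligase-null over degraded was 1.16 (SE 0.13, adjusted p = 1.3e-08), and the 3 groups did not overlap. Tmem184a stood likewise, with 50.3, 49.3, 50.1 and 49.1 CPM in the ligase-null line and 32.5, 31.0, 31.7 and 29.4 CPM with Trim24 degraded, against 7.03, 5.79, 6.91 and 5.56 CPM with Trim24 expressed. Ligase-null over degraded was 0.67 (SE 0.06, adjusted p = 1.1e-10) and under the limit of size. Mafk on the other strand had 40.1 CPM in the ligase-null line and 38.0 CPM with Trim24 degraded, against 29.0 CPM with Trim24 expressed, and its part in these values was not tested.

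In 3 genes the ligase-null line stood between the other groups. Adamts2 had 23.4, 25.4, 24.95 and 22.8 CPM in the ligase-null line and 39.6, 40.4, 37.1 and 34.9 CPM with Trim24 degraded, against 5.84, 5.64, 6.23 and 5.67 CPM with Trim24 expressed. Its log2 fold change was 1.98 (SE 0.09, adjusted p = 4.7e-19) for ligase-null over expressed and 2.63 (SE 0.08, adjusted p = 1.4e-24) for degraded over expressed, and ligase-null over degraded was −0.65 (SE 0.07, adjusted p = 2.8e-09). The 3 groups did not overlap in Adamts2. Rgcc had 10.6, 9.81, 12.3 and 12.4 CPM in the ligase-null line and 15.3, 16.8, 17.5 and 16.9 CPM with Trim24 degraded, against 0.879, 0.778, 1.77 and 0.702 CPM with Trim24 expressed, and ligase-null over degraded was −0.55 (SE 0.09, adjusted p = 3.7e-06). Pnliprp2 had 6.52, 5.45, 5.65 and 6.27 CPM in the ligase-null line and 8.52, 8.78, 9.93 and 9.80 CPM with Trim24 degraded, against 0.465, 0.243, 0.623 and 0.702 CPM with Trim24 expressed, and ligase-null over degraded was −0.60 (SE 0.10, adjusted p = 8.5e-06). These 3 differences were past the limit on p but not on size.

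In Bfsp2, Rsph6a and Arhgef33 the ligase-null and degraded libraries overlapped. Bfsp2 had 6.11, 5.82, 4.55 and 5.56 CPM in the ligase-null line and 5.1998, 5.24, 6.02 and 5.09 CPM with Trim24 degraded, against 1.03, 0.924, 1.14 and 0.994 CPM with Trim24 expressed. Rsph6a had 28.5, 24.5, 24.9 and 25.03 CPM in the ligase-null line and 25.7, 24.2, 25.9 and 25.04 CPM with Trim24 degraded, against 4.75, 5.64, 6.55 and 6.08 CPM with Trim24 expressed. Arhgef33 had 21.3, 22.9, 23.1 and 20.46 CPM in the ligase-null line and 18.7, 17.4, 20.7 and 19.4 CPM with Trim24 degraded, against 8.01, 8.27, 7.48 and 6.78 CPM with Trim24 expressed. All of these ligase-null and degraded libraries were above all the expressed ones. Ligase-null over degraded was 0.02 in Bfsp2 (95% interval −0.20 to 0.25, adjusted p = 0.88 with limma), 0.03 in Rsph6a (−0.11 to 0.17, adjusted p = 0.77) and 0.20 in Arhgef33 (0.05 to 0.36, adjusted p = 0.025). Degraded over expressed was 2.06 (SE 0.14, adjusted p = 7.6e-14) in Bfsp2, 2.07 (SE 0.09, adjusted p = 6.6e-20) in Rsph6a and 1.28 (SE 0.09, adjusted p = 4.6e-14) in Arhgef33. It was 3.67 (SE 0.16, adjusted p = 2.1e-14) in Rgcc, the largest of the 8, 3.503 (SE 0.16, adjusted p = 2.9e-19) in Pnliprp2 and 2.24 (SE 0.08, adjusted p = 1.1e-21) in Tmem184a. Endoderm markers set the ligase-null line apart. Gata6 was at 9.04 to 12.2 CPM in the ligase-null line and 1.28 to 1.44 CPM with Trim24 degraded, against 1.56 to 2.07 CPM with Trim24 expressed. Of the 20 markers of other cell types, 6 were higher and 2 lower in the ligase-null line than with Trim24 expressed, where 4.67% of all genes were higher and 2.28% lower. The sum of the 20 markers was 285 to 320.1 CPM in the ligase-null line and 339.8 to 369.9 CPM with Trim24 degraded, against 319.8 to 362 CPM with Trim24 expressed. The 14 pluripotency markers summed to 3377 to 3785 CPM in the ligase-null line and 3387 to 3526 CPM with Trim24 degraded, against 3487 to 3865 CPM with Trim24 expressed, and at an unadjusted p under 0.05 by limma 8 of the 14 were lower and 1 was higher in degraded than in expressed libraries. Over all genes tested, that limit gave 1964 of 16313 lower and 3462 higher. The part of these markers in the values of the 8 genes was not tested. In bulk RNA, more RNA per cell and more cells that express a gene cannot be told apart.

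**Figure D4:**
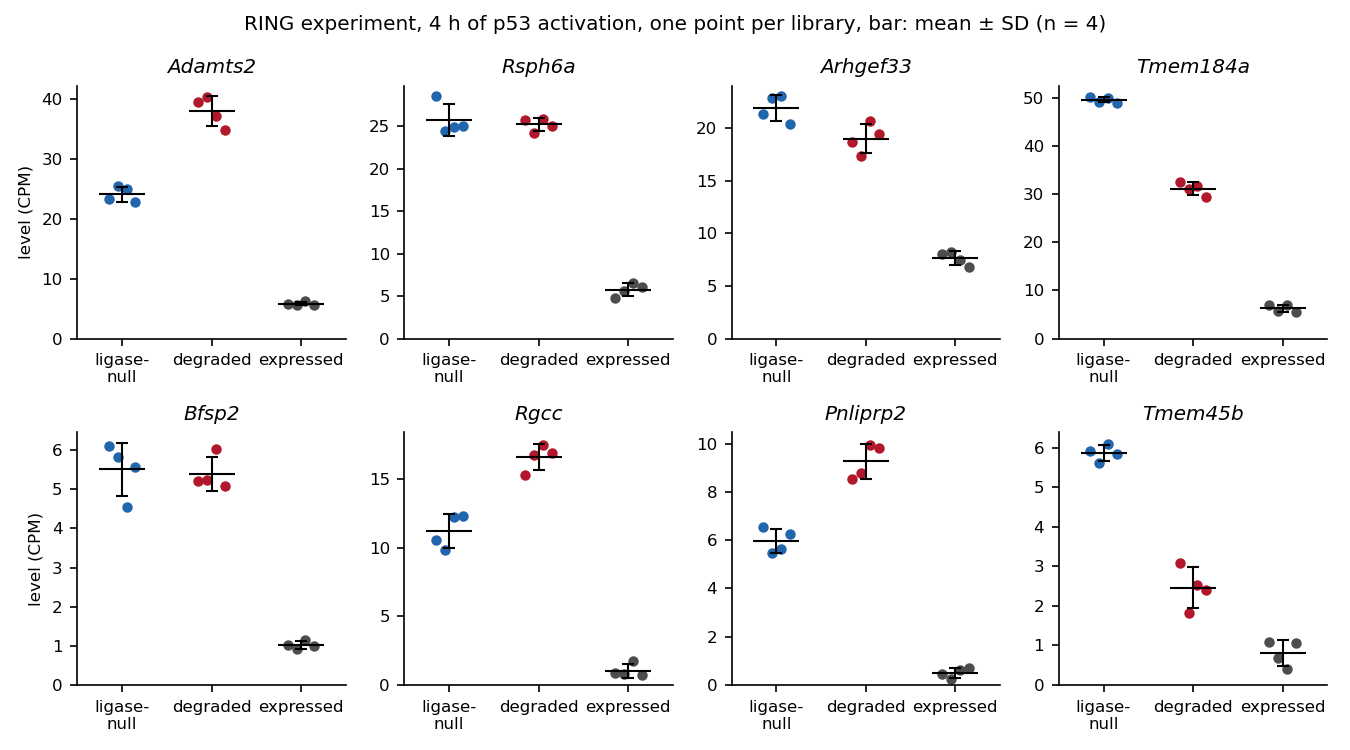
RNA level in CPM (y axis, linear, from 0, a scale of its own for each gene) at 4 h of p53 activation in the RING experiment, ligase-null line, Trim24 degraded and Trim24 expressed from left to right, 1 point per library with the mean and SD over 4 libraries as bars. The ligase-null and degraded libraries lie above the expressed libraries in all 8 panels, and the ligase-null points lie above the degraded ones in Tmem45b and Tmem184a and below them in Adamts2, Rgcc and Pnliprp2.

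Over the 9 group means of the time course, taken on the log2 scale, most of the 8 genes followed one another, as a description of groups that share libraries and drug. The correlation (Pearson's r) of a gene with the mean of the other 7 was 0.97 in Rgcc, 0.94 in Adamts2 and in Bfsp2, 0.93 in Tmem184a, 0.92 in Rsph6a, 0.90 in Pnliprp2, 0.80 in Arhgef33 and 0.45 in Tmem45b. Among pairs it was highest between Arhgef33 and Rsph6a (0.97) and lowest between Arhgef33 and Tmem45b (0.06). The 5 genes outside the 8 whose profile was most like their mean, of 15353 ranked, were Cd209d (r = 0.98), Rasd2, Ranbp3l, Dntt and Peli3 (0.97 each). No function shared with the 8 follows from such a likeness.

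Genes known to work beside the 8 are given as counts. Uninduced, where 0.0781% of all genes were past both limits and higher, of the other listed genes that passed the filter, 18 of procollagen processing, 10 of the lens fibre, 14 of the radial spoke, 8 of sperm, 10 of pancreatic acinar cells and 4 of the Tmem45 and Tmem184 families, none was past both limits by limma or by limma-voom, and in none of these lists did more than 1 gene reach an unadjusted p under 0.05 as higher. At 4 h, with Trim24 degraded and p53 active, Cfap206 of the radial spoke list (log2 fold change 0.86) and Reg1 of the acinar list (2.16) were past both limits, and in the RING experiment Reg1 was (2.59). With p53 activated and Trim24 present, many of them were higher: at 8 h, where 27.0% of all genes were past both limits and higher, 11 of 20 procollagen processing, 9 of 16 lens fibre, 10 of 16 radial spoke, 3 of 9 sperm and 7 of 14 acinar genes were. Of these lists 3 procollagen processing and 4 acinar genes were lower, where 18.3% of all genes were. Reg1 encodes a secreted protein of acinar cells and Cfap206 a protein of ciliary radial spokes. The 30 listed p53 targets were past both limits on Trim24 loss in none of the comparisons, uninduced, at 2, 4, 8 or 12 h or in the RING experiment, by limma or by limma-voom. At an unadjusted p under 0.05 by limma, 2 were higher and 0 lower uninduced, 3 higher and 3 lower at 2 h, 5 higher and 11 lower at 4 h, 1 higher and 14 lower at 8 h, 2 higher and 18 lower at 12 h, and 8 higher and 7 lower in the RING experiment. Over all genes the same limit gave 681 higher and 518 lower of 15360 uninduced, 653 and 526 of 15688 at 2 h, 1884 and 2134 of 16138 at 4 h, 1279 and 2678 of 17424 at 8 h, 3018 and 3937 of 16774 at 12 h, and 3462 and 1964 of 16313 in the RING experiment. Their median log2 fold change was −0.07 at 4 h, −0.16 at 8 h, −0.21 at 12 h and 0.01 in the RING experiment. Activation itself put 23 of the 30 past both limits and higher at 4 h, where 12.9% of all genes were, with a median of 1.63 on the log2 scale, and 19 of the 30 in wild-type cells, where 7.99% of all genes were, with a median of 1.23. At 4 h of activation the 8 genes had a median of 2.27.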

How the data were processed

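The tables, 4 in number, hold RNA-seq of 20489 protein-coding genes in 49 libraries of mouse embryonic stem cells. The authors aligned reads to mm10 with STAR, counted them over genes with featureCounts, normalized with edgeR (TMM), and what they deposited is log2 CPM to which a prior count of 8 was added first. A read with several matches was placed at 1 of them, and genes named Gm were left out. Demultiplexing used bcl2fastq 2.17 or 2.20. From the deposited log2 values, reads were recovered, and 100% came out whole within 0.01.

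Groups were compared on the deposited log2 values with limma 3.58.1 (R 4.3.3), using lmFit and an eBayes step in which trend and robust were set, with 2 groups to a fit and Benjamini-Hochberg adjustment over all genes tested. The log2 scale, used because the tables hold no counts, understates the change of low genes. The filter kept genes that were 0.5 above the floor of −1.48 in a number of libraries no less than the size of the smaller group. The limits for a call were 0.01 on the adjusted p and 0.75 on the size of the log2 fold change. There were 16 such comparisons and 1 added after seeing the data, at 12 h minus 2 h. CPM values carry no prior count, and counting intervals cover counting error only. Libraries are biological replicates in the methods, but the labels name no separate cultures, so p-values measure the spread between these libraries, which may be partly technical. The methods were tested on simulated data.

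The 8 genes and all gene lists were chosen with earlier results of these data known. Named besides the 8 are checks of line and activation, the 5 genes of most similar time course profile, and of each list at most the 2 genes with the largest change among those past both limits at 4 h of Trim24 loss. Pou4f3, Fgfbp1, Tlr2, Csrnp2, Mafk, Nanog and the endoderm markers were named after their values were seen. The lists were procollagen processing, lens fibre, radial spoke, sperm, pancreatic acinar, Tmem45 and Tmem184 families, mitotic kinases and cyclins, p53 targets, pluripotency, other cell types and the TIF1 family. Some items are not reported here. Positions come from GENCODE release 21 on GRCm38, which may differ from the annotation the authors used, and promoter sequences from RefSeq on GRCm38.p6. Figures were drawn with matplotlib 3.10.9.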

Additional observations from a re-analysis of the deposited data

Results flagged for a closer look

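In the RING experiment, replicate 1 of the ligase-null line stood apart for Rsph6a, at 28.5 CPM: its gap to the nearest library took 0.85 of the range of the 4 libraries, above Dixon's 95% critical value. This was the 1 group so marked among 24 groups of the 8 genes, and chance marks about 1 in 20. Without this library, ligase-null minus degraded for Rsph6a was −0.02 on the log2 scale.

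The effect of Trim24 loss differed between 12 h and 2 h, by limma on the difference itself, in 7 of the 8 genes. The 12 h minus 2 h difference was −2.35 in Adamts2, −1.66 in Bfsp2, −0.82 in Arhgef33, −0.81 in Tmem184a and −0.78 in Rsph6a. It was 0.91 in Rgcc and 1.48 in Pnliprp2. Each of these passed an adjusted p of 0.01 (adjusted p between 2.5e-10 and 0.0072), and the degraded libraries lay above the expressed ones at both times in all 7. The test was added after the data had been seen. Rgcc was lost on leaving out any of 10 of the 12 libraries, without a filter, and in limma without trend and robust. With limma-voom Rgcc and Pnliprp2 were lost, and under quantile normalization Rsph6a, Tmem184a and Arhgef33 were. Losses without single libraries in other genes are given above.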

How the results depend on the processing

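Of the counts of the 8 genes past both limits, 271 recomputed under other settings stayed within 1.5 times the value given and 8 did not. The uninduced count of 8 was 0 without a filter and 0 in limma without trend and robust, the count of 7 at 2 h was 0 without a filter, and the count of 4 for activation at 2 h was 1 without a filter. At an adjusted p under 0.05 with no limit of size, the count for ligase-null against degraded was 3 and that for 8 h minus 4 h was 3, in place of 1 each. The 5 lower genes at 12 h minus 2 h were 2 under quantile normalization. The cause was not tested.

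Leaving out 1 library at a time gave 6 to 8 genes uninduced, 7 at 2 h, 8 at 4 h, 6 at 8 h, 4 to 5 at 12 h, 3 to 6 in wild-type cells, and 4 to 5 at 12 h minus 2 h. The lowest uninduced count came without replicate 1 of the untreated libraries and the lowest wild-type count without replicate 1 of the activated ones. Signs turned only in values that had not passed, whose ranges were −0.30 to 0.045 at 2 h and −0.31 to 0.0054 at 4 h of activation in Tmem45b, −0.28 to 0.17 at 2 h of activation in Pnliprp2, −0.0245 to 0.11 in Bfsp2 and −0.022 to 0.051 in Rsph6a for ligase-null minus degraded, and −0.054 to 0.20 in Tmem45b at 12 h minus 2 h.

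Same-numbered libraries did not deviate together in every pair of any comparison (r between −0.21 and 0.20), so numbers were not taken as pairs. With a replicate block the counts were 8 uninduced, 7 at 2 h, 8 at 4 h, 6 at 8 h, 5 at 12 h, 6 in wild-type cells and 8 for degraded over expressed in the RING experiment, the same as without it. At 4 h of Trim24 loss and in no other comparison, every library correlated best with its own number. No paired analysis was possible for the ligase-null line because it shares only 1 replicate number with the other groups.

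Over all genes, in limma without trend and robust, 0 uninduced (12 with them), 22 higher and 1 lower at 2 h (51 and 2), 85 and 5 at 4 h (162 and 24) and 124 and 38 at 8 h (198 and 78) were past both limits. Without a filter 0 were uninduced, 0 at 2 h, 105 and 11 at 4 h, and 120 and 18 for activation at 2 h (476 and 105). At 12 h minus 2 h limma-voom gave 183 and 90 (261 and 160). At an adjusted p under 0.05 with no limit of size, all counts were larger, with 43 and 13 uninduced, 101 and 31 at 2 h, 2253 and 3012 at 12 h, and 2503 and 1145 in the RING experiment (165 and 22). Quantile normalization moved the split of activation at 4 h to 1570 and 1366 (2039 and 915), at 12 h to 3789 and 4415 (4964 and 3762) and in wild-type cells to 897 and 569 (1315 and 373). At a median of 19520026 reads, counting error limits genes under 1 CPM.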
